A study of Mus musculus with 8 samples.

Results

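The heat shock and endoplasmic reticulum (ER) chaperone genes described here were 10 genes, Hspa1a, Hspa1b, Hspb1, Hsph1, Hspa5, Hsp90b1, Dnajb9, Pdia4, Xbp1 and Ddit3, of 18336 genes named by a single-gene probe set on either array. They were chosen by name, and every probe set annotated to one of them was taken, which gave 11 of the 12422 probe sets of the Affymetrix U74Av2 array and 22 of the 45037 of the MOE430v2 array, control probe sets aside. A probe set is a group of short probes that together give 1 signal for a transcript. Cytosolic heat shock genes (4 genes) were set beside ER genes (6 genes) in Foxa2 null against wild-type gastrulating mouse embryos.

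The Foxa2 null embryos (2 pools, of 53 and 48 embryos) were derived from Foxa2 null embryonic stem cells aggregated with wild-type tetraploid host embryos. The host supplied the extra-embryonic tissue, including a wild-type visceral endoderm that stayed on the dissected embryos. The wild-type embryos (2 pools, of 53 and 50 embryos) came from timed matings of ICR mice. Both were collected at embryonic day 7.5, between mid-streak and head-fold stages, with the extra-embryonic region removed and, where the labels give it, the sexes mixed, and wild-type pool 2 held the youngest embryos by the study's staging. The MOE430v2 labels give ICR for the mutant pools too and the U74Av2 labels give them no strain, which leaves the mutant cells' strain unsettled, and genotype and embryo origin cannot be told apart. Each of the 4 extracts was hybridized to 1 array of each platform. The MOE430v2 arrays therefore repeat the same extracts, and n was 2 pools per genotype throughout.

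Heat shock proteins of the cytosol bind unfolded or aggregating proteins, and the stress-inducible ones are switched on by heat shock factors when protein folding is disturbed. Secreted and membrane proteins fold in the ER instead, with the help of chaperones and of enzymes that form disulfide bonds. When folding there is overloaded, the unfolded protein response, through sensors that include Ire1, Perk and Atf6, raises the ER chaperones and, on prolonged stress, the factor Ddit3. At gastrulation the visceral endoderm is the main secretory epithelium of the embryo, and the node, notochord and definitive endoderm that depend on Foxa2 also secrete signals.

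The promoters (250 bases before to 50 after the start, RefSeq, GRCm38.p6) of all 10 genes were searched on both strands for 4 response elements, since these elements separate the ER from the cytosolic response in textbook accounts. The ER stress response element, searched as CCAAT and CCACG with any 9 bases between them, occurred in 0.119% of 32851 promoters and was found at Hspa5 and, at 2 places, at Hsp90b1. The heat shock element was searched as 3 alternating units (GAA, TTC, GAA or TTC, GAA, TTC) with NN, any pair of bases, between neighbours. It occurred in 0.603% of promoters and was found at Hsph1. There it began after the start, by 36 bases from the first of the 2 starts used and by 15 from the second. A second ER stress element, ATTGG and CCACG with any 1 base between them (0.0365% of promoters), and the unfolded protein response element TGACGTGG (0.676%) were found at no member. None of the 4 patterns was met in the windows of Hspa1a, Hspa1b, Hspb1, Dnajb9, Pdia4, Xbp1 or Ddit3. Only exact matches inside these windows were searched, so elements of another form or place would be missed. The matches are shown with the fixed bases of each element in capitals, and a match is a description of these letters only. The first Hsp90b1 match and the Hspa5 match read forward along the gene, and the second Hsp90b1 match reads on the other strand.
Hspa5, chr2:34772017-34772051, plus strand: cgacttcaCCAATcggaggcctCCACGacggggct
Hsp90b1, chr10:86705630-86705664, minus strand: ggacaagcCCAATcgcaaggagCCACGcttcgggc
Hsp90b1, chr10:86705525-86705559, minus strand: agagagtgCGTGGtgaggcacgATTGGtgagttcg
Hsph1, chr5:149636287-149636308, minus strand: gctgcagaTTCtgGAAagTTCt

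Hspa1a and Hspa1b, the neighbouring genes of inducible Hsp70 on chromosome 17, are shown because their sequences are hard to tell apart on an array. Their promoters were identical at 296 of 300 bases (98.7%). The stretch shown holds 2 of the 4 differing bases, which are in capitals.
Hspa1a, chr17:34972337-34972376, minus strand: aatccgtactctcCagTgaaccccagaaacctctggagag
Hspa1b, chr17:34959419-34959458, minus strand: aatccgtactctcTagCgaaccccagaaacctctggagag

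Every array had been scaled by the authors to a common mean, and median signals ran from 48 to 52.8 on U74Av2 and from 155 to 165 on MOE430v2. Probe sets in the bottom 30% by mean signal were not tested. Ratios are log2 signal in Foxa2 null minus wild-type pools from limma with an intensity trend, called at a Benjamini-Hochberg adjusted p under 0.05 over all probe sets tested (8695 on U74Av2 and 31526 on MOE430v2). Another fit used the mean of the 2 arrays of each extract for 5933 genes tested on both platforms. Median ratios over everything tested were -0.02, -0.00072 and -0.0097 on U74Av2, on MOE430v2 and over both. The Foxa2 probe sets had log2 signals of 6.39 and 6.55 in Foxa2 null pools against 7.37 and 8.08 in wild-type pools on U74Av2, and 8.96 and 9.06 against 9.62 and 10.17 on MOE430v2. The adjusted p of limma for Foxa2 was 0.130 and 0.141, and whether these probes lie inside the deleted part of the gene is not given in the sources used here.

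The labelled tissue was checked against marker lists. All 9 epiblast markers were measured on MOE430v2, with a summed signal of 34010 and 41460 in Foxa2 null pools and 31550 and 35600 in wild-type pools. Of these 9, 7 had a ratio above 0 and 2 below. At an unadjusted p under 0.05 by limma, 5 were higher (background 6.03%) and 1 lower (background 6.07%). Visceral endoderm markers (18 of 20 measured and tested on MOE430v2) summed to 110100 and 85480 in Foxa2 null pools and 81090 and 84150 in wild-type pools, so Foxa2 null pool 1 stood above the rest, and 16 of the 18 had a ratio above 0. Definitive endoderm markers (7 of 8 tested, Gsc being below the low-signal filter) summed to 4377 and 5400 in Foxa2 null pools and 6879 and 9169 in wild-type pools. Node and notochord markers (5 of 7 measured and tested) summed to 1074 and 1326 in Foxa2 null pools and 2264 and 2912 in wild-type pools. Foxa2, the mutated gene, was among these 5, so part of this sum repeats the Foxa2 signals given above. Trophoblast and extra-embryonic ectoderm markers (4 of 8 tested) summed to 3403 and 3799 in Foxa2 null pools and 2711 and 2709 in wild-type pools. Parietal endoderm markers (10 of 10 tested) summed to 19230 and 15970 in Foxa2 null pools and 19470 and 16180 in wild-type pools. Of these 10, 7 had a ratio below 0 and 3 above. Primitive blood markers (3 of 7 tested) summed to 1422 and 283 in Foxa2 null pools and 309 and 1242 in wild-type pools. The pools of each genotype thus differed widely in primitive blood markers. None of the tested markers of these lists was at 0. In pools of dissected embryos, fewer cells of a type and less RNA per cell cannot be told apart.

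Of the 33 probe sets of the members, 29 were tested and 1 was called. On U74Av2, 0 of 9 tested probe sets were called in either direction by limma (background 0.173% lower and 0.104% higher), and 0 had an unadjusted p under 0.05 (background 5.01% lower and 5.01% higher). On MOE430v2, 1 of 20 was called lower, a probe set of Pdia4, and 0 were called higher (background 0.244% lower and 0.19% higher), with an unadjusted p under 0.05 for 1 lower and 2 higher (background 6.07% and 6.03%). Over both platforms 0 of 7 genes were called (background 1.06% lower and 1.35% higher), although Pdia4 was lower with an unadjusted p of 0.00276 and Hspa1b higher with one of 0.0480 (background under 0.05, 7.84% lower and 7.42% higher). The 4 probe sets below the low-signal filter were those of Hspa1a on MOE430v2 (1452388_at), Hspb1 on U74Av2 (92853_at) and Ddit3 (101429_at and 1443897_at), and they have values without a test.

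**Figure D1:**
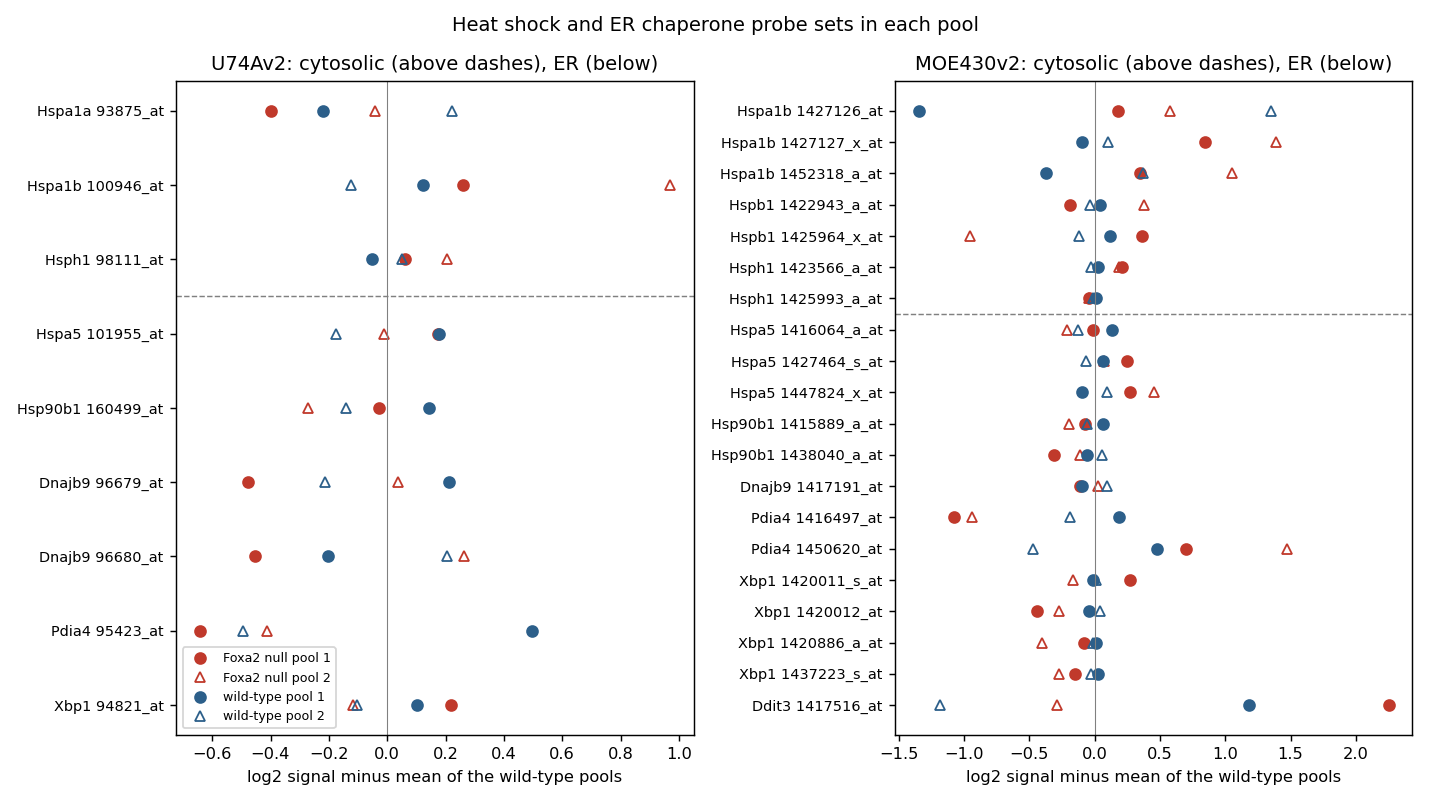
Log2 signal of each tested probe set in each of the 4 pools (x axis, as difference from the mean of the 2 wild-type pools), with U74Av2 on the left and MOE430v2 on the right. Filled symbols are pool 1 and open symbols pool 2, red is Foxa2 null and blue wild-type, and both Pdia4 1416497_at values of Foxa2 null pools lie about 1 log2 unit below the wild-type mean.

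The inducible Hsp70 genes came first among the cytosolic members. Hspa1b encodes a chaperone that is low in most unstressed cells and is strongly induced by heat. Its probe set 1427127_x_at had signals of 288 and 435 in Foxa2 null pools against 154 and 174 in wild-type pools. Both Foxa2 null pools were above both wild-type pools, and the log2 ratio was 1.11 (SE 0.31, 95% interval 0.42 to 1.81), a 2.17-fold higher signal. Limma's adjusted p was 0.193, so the difference did not pass the threshold.

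A second Hspa1b probe set, 1452318_a_at, had 249 and 418 in Foxa2 null pools against 154 and 254 in wild-type pools, and the groups overlapped slightly (ratio 0.70, SE 0.36, adjusted p by limma 0.489). The third, 1427126_at, gave 141 and 197 in Foxa2 null pools against 50.9 and 332 in wild-type pools. Here wild-type pool 1 was the lowest and wild-type pool 2 the highest of all 4, so the ratio of 0.38 had an SE of 0.75, and without wild-type pool 1 it was -0.97. On U74Av2, 100946_at had low signals of 39.1 and 64 in Foxa2 null pools against 35.6 and 30 in wild-type pools (ratio 0.61, SE 0.35, adjusted p by limma 0.616). Over both platforms Hspa1b was at 6.60 and 7.31 in Foxa2 null pools against 6.17 and 6.42 in wild-type pools, higher in 4 of 4 pool comparisons, with a log2 ratio of 0.66 (SE 0.29) and an adjusted p by limma of 0.321. Leaving out Foxa2 null pool 1 gave a ratio of 1.01 and leaving out Foxa2 null pool 2 one of 0.30, and neither passed. Names ending in x_at mark probe sets in which some probes also match other sequences, and those ending in a_at match several transcripts of a gene, so signal of Hspa1a in the Hspa1b probe sets cannot be told apart from that of Hspa1b.

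Hspa1a, the twin gene, showed no such order. Its U74Av2 probe set 93875_at had 28.4 and 36.3 in Foxa2 null pools against 32.1 and 43.6 in wild-type pools (ratio -0.22, SE 0.35, adjusted p by limma 0.897). The untested MOE430v2 probe set 1452388_at had 54.7 and 13.2 in Foxa2 null pools against 36.3 and 31.7 in wild-type pools, and the Foxa2 null pools enclosed the wild-type ones.

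Hspb1 encodes the small heat shock protein Hsp27, which holds unfolded proteins without using ATP. The 2 tested MOE430v2 probe sets pointed in opposite directions. Probe set 1422943_a_at had 772 and 1120 in Foxa2 null pools against 903 and 829 in wild-type pools (ratio 0.09, SE 0.20), and 1425964_x_at had 416 and 171 against 359 and 298 (ratio -0.30, SE 0.40). In each, the 2 Foxa2 null pools lay on either side of both wild-type pools, and limma's adjusted p was 0.894 and 0.813. On U74Av2 the signals of 92853_at were 9.7 and 7.3 in Foxa2 null pools against 7.9 and 10.4 in wild-type pools, under the filter value of 15.4.

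Hsph1, the Hsp110 protein that exchanges nucleotide on Hsp70, differed little between the pools. Its U74Av2 probe set 98111_at had 1415 and 1562 in Foxa2 null pools against 1309 and 1405 in wild-type pools, and on MOE430v2 1423566_a_at had 3267 and 3213 against 2847 and 2798. Both were higher in the 4 pool comparisons, by log2 ratios of 0.13 (SE 0.13) and 0.20 (SE 0.11), with limma adjusted p of 0.806 and 0.508. The other MOE430v2 probe set, 1425993_a_at, was at a log2 signal of 12.69 and 12.68 in Foxa2 null pools against 12.74 and 12.72 in wild-type pools, lower by 0.04 (SE 0.09, adjusted p by limma 0.884). The 95% interval of that difference ran from -0.24 to 0.15. Hsph1 was the member with the match to the heat shock pattern shown above, and its ratio over both platforms was 0.04 (SE 0.09).

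Hspa5, also called BiP or Grp78, is the Hsp70 of the ER lumen and the usual read-out of the unfolded protein response. On U74Av2, 101955_at had 2956 and 2601 in Foxa2 null pools against 2963 and 2320 in wild-type pools (ratio 0.08, SE 0.15, adjusted p by limma 0.915). Pool 1 was above pool 2 in both genotypes, by 0.18 in Foxa2 null and 0.35 in wild-type on the log2 scale, more than the genotypes differed. On MOE430v2 the 3 probe sets disagreed in direction. The log2 signal of 1416064_a_at was 14.40 and 14.20 in Foxa2 null pools against 14.55 and 14.28 in wild-type pools (ratio -0.11, SE 0.10), while 1427464_s_at was at 13.28 and 13.11 against 13.10 and 12.97 (ratio 0.16, SE 0.10). The third, 1447824_x_at, was at 11.02 and 11.20 in Foxa2 null pools against 10.65 and 10.85 in wild-type pools, with no overlap (ratio 0.36, SE 0.13, unadjusted p 0.024, adjusted p by limma 0.329). Over both platforms the ratio was -0.02 (SE 0.11, 95% interval -0.27 to 0.24), and it was 0.0075 after median centring and 0.11 with all probe sets averaged.

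Hsp90b1, or Grp94, is the Hsp90 of the ER and carries a retention signal like that of Hspa5. All 3 of its probe sets had ratios below 0. On U74Av2, 160499_at had 2763 and 2332 in Foxa2 null pools against 3110 and 2554 in wild-type pools (ratio -0.15, SE 0.14), with pool 1 above pool 2 in both genotypes. On MOE430v2 the log2 signals of 1415889_a_at were 13.44 and 13.32 in Foxa2 null pools against 13.58 and 13.45 in wild-type pools (ratio -0.13, SE 0.09), and those of 1438040_a_at were 12.51 and 12.70 against 12.76 and 12.87 (ratio -0.21, SE 0.10). The MOE430v2 groups did not overlap, but limma's adjusted p was 0.593 and 0.460. Hspa5 and Hsp90b1, the members with ER stress response elements, thus had ratios over both platforms of -0.02 and -0.14 (SE 0.11 and 0.10), neither past the threshold.

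Dnajb9, or ERdj4, is a J-domain partner of Hspa5 that is induced by the unfolded protein response. Its MOE430v2 probe set 1417191_at had 1146 and 1237 in Foxa2 null pools against 1156 and 1287 in wild-type pools (ratio -0.04, SE 0.15, adjusted p by limma 0.937). The U74Av2 probe sets were dim. Probe set 96679_at had 23.3 and 33.3 in Foxa2 null pools against 37.6 and 28 in wild-type pools (ratio -0.22, SE 0.38), and 96680_at had 37.6 and 61.8 against 44.7 and 59.3 (ratio -0.09, SE 0.33). The groups overlapped in all 3, and the ratio changed sign in each when Foxa2 null pool 1 was left out (0.025, 0.037 and 0.26).

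Pdia4, or ERp72 (chr6:47796141-47813512), is a protein disulfide isomerase of the ER lumen with several thioredoxin-like domains. Its MOE430v2 probe set 1416497_at had 1222 and 1325 in Foxa2 null pools against 2912 and 2229 in wild-type pools. Both Foxa2 null pools were below both wild-type pools, while the pools of a genotype differed by 0.14 in Foxa2 null and 0.37 in wild-type on the log2 scale. Pdia4 fell by 1.01 on the log2 scale by this probe set (SE 0.15, 95% interval -1.35 to -0.66), so that the wild-type signal was 2.01 times the Foxa2 null signal. The adjusted p of limma was 0.032, and the unadjusted p ranked 96 among the 31526 probe sets. Pdia4 stands in the study's own list of decreases on U74Av2, chosen on these same samples, and is therefore not independent evidence.

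The other 2 Pdia4 probe sets did not repeat this result. On U74Av2, 95423_at had 317 and 372 in Foxa2 null pools against 698 and 351 in wild-type pools. Only wild-type pool 1 stood high, wild-type pool 2 lay between the Foxa2 null pools, and the ratio of -0.53 (SE 0.29) had an adjusted p by limma of 0.600. Leaving out wild-type pool 1 gave -0.031, and leaving out wild-type pool 2 gave -1.02. The second MOE430v2 probe set, 1450620_at, ran the opposite way on low signals, with 116 and 212 in Foxa2 null pools against 103 and 54.8 in wild-type pools (ratio 1.08, SE 0.55, adjusted p by limma 0.484). Its lowest value was close to the filter value of 54.4.

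Over both platforms, with the brighter probe set of each, Pdia4 was at 9.28 and 9.46 in Foxa2 null pools against 10.48 and 9.79 in wild-type pools, lower in 4 of 4 pool comparisons (ratio -0.77, SE 0.19, adjusted p by limma 0.0807), and with all probe sets averaged the ratio was -0.24. It was -0.43 without wild-type pool 1 (adjusted p by limma 0.298) and -1.11 without wild-type pool 2 (0.00900), and it also passed without Foxa2 null pool 1 (0.0203) or Foxa2 null pool 2 (0.00264). The MOE430v2 call was lost when limma was fitted without the intensity trend (adjusted p 0.459) or without the low-signal filter (0.0914), and when Foxa2 null pool 1 (0.0518), wild-type pool 1 (0.130) or wild-type pool 2 (0.0657) was left out. The summed definitive endoderm markers and the node markers, which include Foxa2 itself, were lower in the same pools as 1416497_at, as given above. Their part in the Pdia4 difference was not tested.

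**Figure D2:**
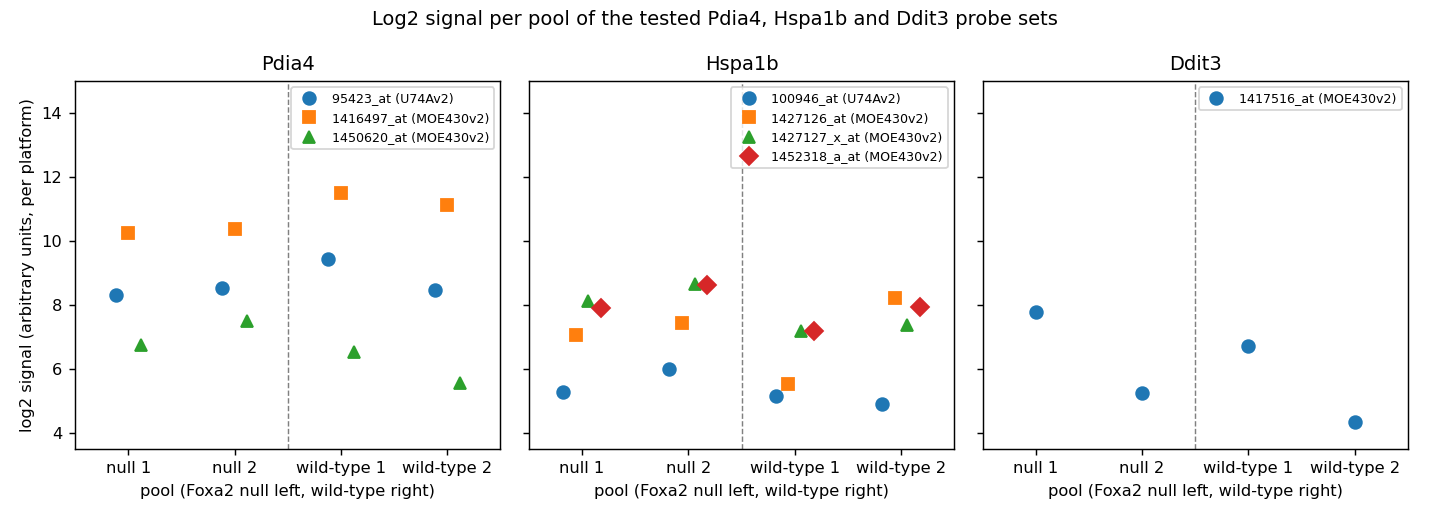
Log2 signal (y axis, arbitrary units of each platform) in the 2 Foxa2 null and the 2 wild-type pools for every tested probe set of Pdia4, Hspa1b and Ddit3. The orange squares of Pdia4 (1416497_at) are at 10.24 and 10.38 in Foxa2 null pools and at 11.51 and 11.13 in wild-type pools, whereas Ddit3 is higher in pool 1 than in pool 2 of both genotypes.

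Xbp1 is the transcription factor made active by Ire1 splicing, and its targets include many ER chaperones and secretory genes. The arrays measured its total transcript, not the splice. On U74Av2, 94821_at had 253 and 201 in Foxa2 null pools against 234 and 203 in wild-type pools (ratio 0.05, SE 0.19, adjusted p by limma 0.960). On MOE430v2 3 of its 4 probe sets were below in all 4 pool comparisons. The brightest, 1437223_s_at, had log2 signals of 11.97 and 11.86 in Foxa2 null pools against 12.15 and 12.10 in wild-type pools (ratio -0.21, SE 0.10). Probe set 1420886_a_at was at 11.70 and 11.38 against 11.79 and 11.77 (ratio -0.24, SE 0.13), and 1420012_at at 8.65 and 8.82 against 9.05 and 9.13 (ratio -0.36, SE 0.20). Limma's adjusted p was 0.453, 0.495 and 0.523, so none passed, and the fourth, 1420011_s_at, overlapped with a ratio of 0.05 (SE 0.17). These probe sets read 1 gene in the same extracts and are not separate observations of it.

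Ddit3, or CHOP, is the stress factor that acts late in the unfolded protein response and is low in unstressed cells. The tested probe set 1417516_at had 238 and 44.2 in Foxa2 null pools against 118 and 23.7 in wild-type pools. Pool 1 exceeded pool 2 in both genotypes, by 2.54 in Foxa2 null and 2.37 in wild-type on the log2 scale, while the genotypes differed by 0.98 (SE 1.03, adjusted p by limma 0.752). The signal of this probe set therefore followed the pool number more than the genotype in these 4 extracts, and its pool 2 signals lay below the filter value of 54.4. Between genotypes, the 2 probe sets below the filter were in the other direction. Signals of 101429_at were 7.2 and 8.9 in Foxa2 null pools against 12.5 and 10.4 in wild-type pools, and those of 1443897_at 12.6 and 10.8 against 38.4 and 21.8. Within Foxa2 null, 101429_at was lower in pool 1 than in pool 2.

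**Figure D3:**
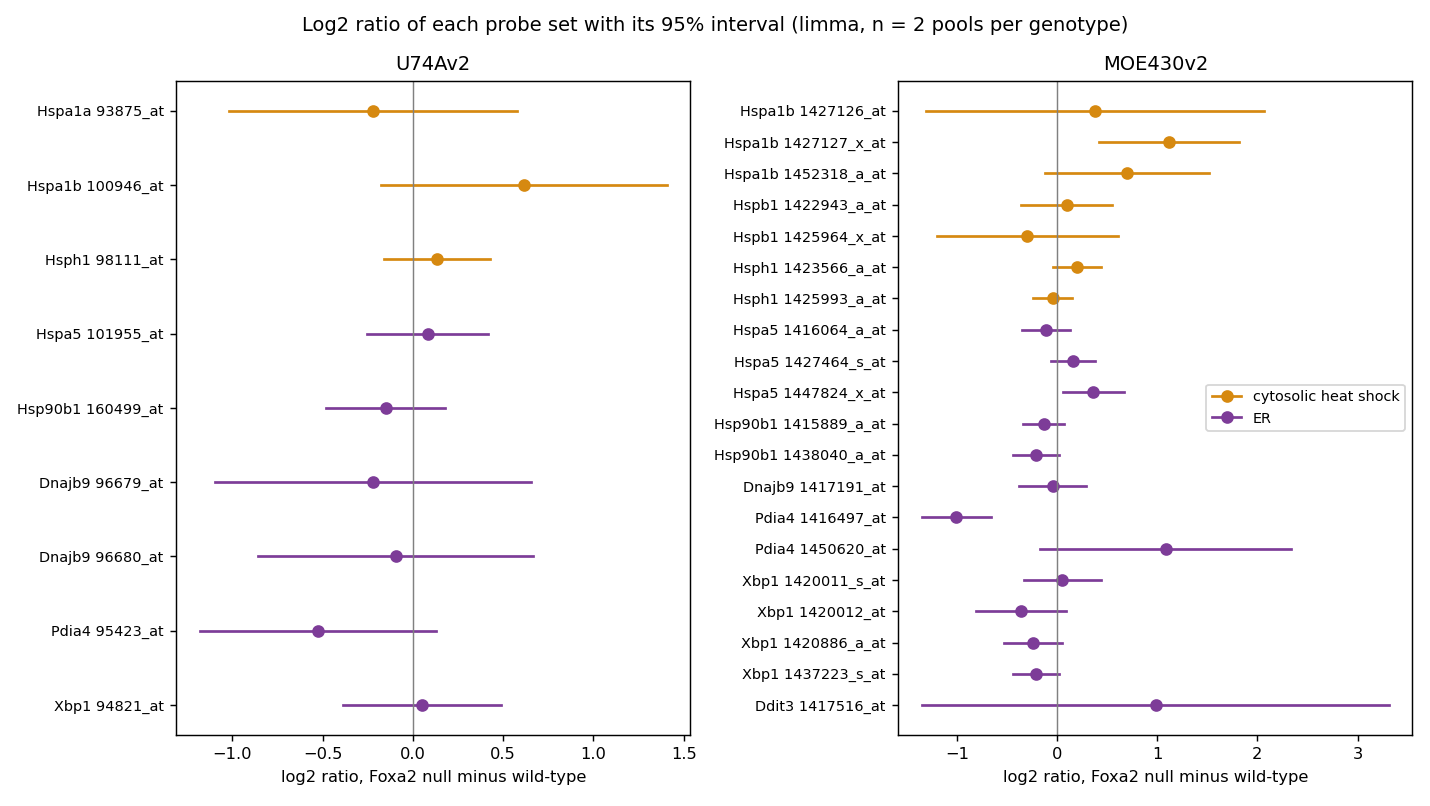
Log2 ratio of every tested member probe set (x axis, Foxa2 null minus wild-type) with its 95% interval from limma, cytosolic heat shock genes in orange and ER genes in purple, U74Av2 on the left and MOE430v2 on the right. The intervals of Pdia4 1416497_at, Hspa1b 1427127_x_at and Hspa5 1447824_x_at leave out 0, and only that of Pdia4 belongs to a probe set past the adjusted threshold.

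Set beside each other, the cytosolic genes had medians above 0 and the ER genes below 0, each by a small amount. With the brightest tested probe set of each gene, the 3 cytosolic genes tested had medians of 0.13 on U74Av2 and 0.09 on MOE430v2, against ER medians of -0.09 over 5 genes and -0.12 over 6 genes. Over both platforms the median was 0.35 for the 2 cytosolic genes Hspa1b and Hsph1 and -0.08 for the 5 ER genes. All 5 ER genes had a ratio below 0, but only 4 did with median centring and 3 without Foxa2 null pool 2. With each pool left out in turn, the ER median over both platforms ran from -0.19 to -0.040. Without the low-signal filter Hspa1a and Hspb1 entered that fit, and the cytosolic median was 0.019. Leaving out Foxa2 null pool 1 gave 0.54, and leaving out Foxa2 null pool 2 gave 0.16. The ranges overlapped on each single platform, from -0.22 to 0.61 against -0.53 to 0.08 on U74Av2 and from -0.04 to 0.70 against -1.01 to 0.98 on MOE430v2. Without a test, and with some members read by several probe sets, these medians describe only the member genes tested in each fit.

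The counts of groups that did not overlap were read against all probe sets. On U74Av2, 2 of 3 cytosolic and 0 of 6 ER probe sets had both Foxa2 null pools above both wild-type pools (background 18.6%), and 0 of 9 had them below (background 21.4%). On MOE430v2, 7 of 20 (35%) were below (background 21.8%) and 5 of 20 (25%) above (background 21.5%). Of the 7 below, 6 were ER probe sets, belonging to Xbp1 (3), Hsp90b1 (2) and Pdia4 (1), and the seventh was Hsph1 1425993_a_at. Of the 5 above, 2 were cytosolic, 1 each of Hspa1b and Hsph1, and 3 belonged to Hspa5 (2) and Pdia4 (1). Pdia4 and Hsph1 thus had probe sets in both directions. Probe sets of 1 gene read the same extracts and are not separate observations, so these shares count some genes repeatedly.

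Other chaperones of the ER were also mostly below 0. Of 20 further ER chaperones and folding enzymes, 16 were tested on both platforms, and 13 of these had a ratio below 0, with 11 of 16 lower in all 4 pool comparisons (background 23.5%), 1 higher (background 22.1%) and a median of -0.24, against -0.0097 over all genes. None of the 16 was called by limma (background 1.06% lower and 1.35% higher). Of them, 5 had an unadjusted p by limma under 0.05 for lower (background 7.84%) and 1 for higher (background 7.42%). With 50% of signals left out 2 of 15 were called, against 93 called lower and 119 called higher of all 4545 genes. The lowest were Dnajc10, a J-domain reductase that works with Hspa5, and Pdia6, a disulfide isomerase. Dnajc10 was at 10.12 and 10.20 in Foxa2 null pools against 10.63 and 10.54 in wild-type pools (ratio -0.43, SE 0.11), and Pdia6 at 11.02 and 10.79 against 11.33 and 11.32 (ratio -0.42, SE 0.11), with limma adjusted p of 0.0807 and 0.0851. Pdia3, the isomerase that works with calnexin on glycoproteins, was the highest at 0.56 (SE 0.22, adjusted p by limma 0.244), followed by P4hb at 0.16 (SE 0.12). The Pdia3 ratio was 0.92 on U74Av2 and 0.20 on MOE430v2. On MOE430v2 Foxa2 null pool 2 (12.21) lay below both wild-type pools (12.45 and 12.45).

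On MOE430v2, 1 of the 20 was called lower and 0 higher (background 0.244% and 0.19%). It was Sdf2l1, which sits in complexes of Hspa5 and J-domain proteins and has no tested probe set on U74Av2. Its log2 signal was 8.54 and 9.04 in Foxa2 null pools against 10.26 and 10.01 in wild-type pools, and it fell by 1.35 (SE 0.21, adjusted p by limma 0.0371). The call was lost without the intensity trend (0.455), without the low-signal filter (0.101), and without Foxa2 null pool 1 (0.0549), wild-type pool 1 (0.152) or wild-type pool 2 (0.129). Sdf2l1 and Pdia4 were the only members of either ER list called in any of the 3 fits.

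The list of 14 genes of ER translocation and signal peptide handling had 11 ratios below 0 over both platforms, with a median of -0.09. In all 4 pool comparisons 4 were lower and 2 higher (background 23.5% and 22.1%). Limma called 0 of them, and 1 was lower at an unadjusted p under 0.05 (background 7.84%). Ddost (-0.38, SE 0.16), a subunit of the oligosaccharyltransferase, and Ssr3 (-0.23, SE 0.11), of the translocon, were lowest. Sec11a (0.15, SE 0.10), of the signal peptidase, and Ssr1 (0.14, SE 0.11) were highest. The platforms differed for Sec11a, at 0.57 on U74Av2 and -0.27 on MOE430v2, and for Ddost, at -0.67 on U74Av2 and -0.09 on MOE430v2. ER-associated degradation (5 genes) had a median of 0.10, with Derl1 (-0.16) and Derl2 (-0.08) lowest and Herpud1 (0.50) and Sel1l (0.26) highest. Without Herpud1, which lies on chromosome 8, the median was 0.01. Sensors and stress factors of the unfolded protein response (10 genes) had a median of -0.01, with Atf4 (-0.34, SE 0.12) and Atf3 (-0.24, SE 0.33) lowest and Ppp1r15a (0.42, SE 0.15) and Mbtps1 (0.27, SE 0.19) highest. None of these genes was called over both platforms. At an unadjusted p under 0.05 by limma, 1 gene was higher in the degradation list, and 1 was lower and 1 higher among the sensors. The background was 7.84% lower and 7.42% higher.

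Further cytosolic chaperones and heat shock factors (21 genes) had a median of 0.03 over both platforms. In all 4 pool comparisons 4 were lower (background 23.5%) and 4 higher (background 22.1%). Limma called 0 of them, and 2 were lower and 3 higher at an unadjusted p under 0.05 (background 7.84% and 7.42%). Dnajb1, the J-domain partner of inducible Hsp70, and Cryab, a small heat shock protein, were highest at 0.38 each (SE 0.13 and 0.37), and Dnajb4 (-0.37, SE 0.35) and Dnajb6 (-0.33, SE 0.10) lowest. Dnajb1, Herpud1 and Mbtps1 lie on chromosome 8, whose probe sets had a median ratio of 0.32 on U74Av2 and 0.34 on MOE430v2, against -0.02 and -0.02 for other chromosomes, and no member lies there. Mitochondrial chaperones (8 genes, median 0.03, from Lonp1 at -0.28 and Hspd1 at -0.11 to Hspe1 at 0.10 and Dnaja3 at 0.12) and the cytosolic chaperonin with prefoldin (10 genes, median 0.05, from Pfdn5 at -0.26 and Cct5 at -0.03 to Pfdn2 at 0.20 and Cct6a at 0.32) had 0 called genes.

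**Figure D4:**
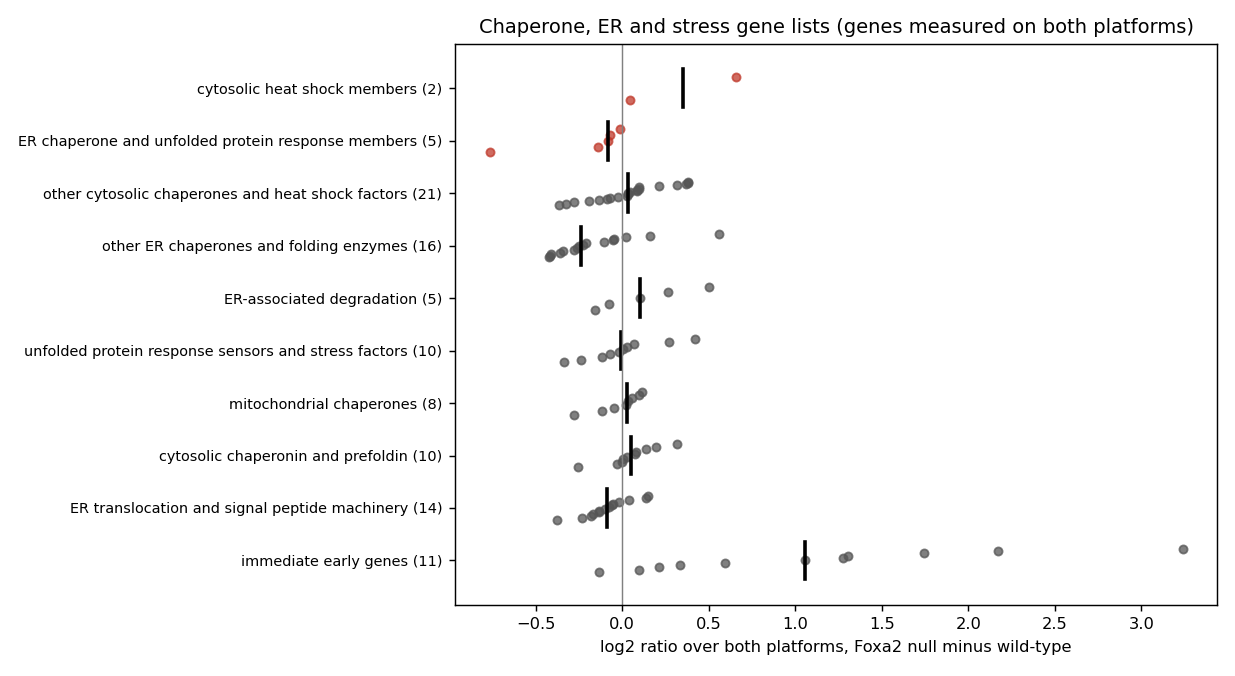
Log2 ratio over both platforms (x axis, Foxa2 null minus wild-type) of each gene of the member groups (red) and of the companion lists (grey), with the median of each list as a black bar and the number of genes in brackets. The other ER chaperones centre at -0.24, the other cytosolic chaperones at 0.03 and the immediate early genes at 1.06.

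The immediate early genes, which are transcribed within minutes of a stimulus, had the highest median of the lists examined. Of 11 genes, 10 had a ratio above 0 over both platforms, 8 were higher in all 4 pool comparisons (background 22.1%), and the median was 1.06, but 0.56 without wild-type pool 2. Fos was at 10.07 and 8.96 in Foxa2 null pools against 7.51 and 5.04 in wild-type pools and rose by 3.24 (SE 0.63, adjusted p by limma 0.0327). Its ratio was 2.00 without wild-type pool 2. Fosb (2.17, SE 0.45), Egr1 (1.74, SE 0.34) and Dusp1 (1.06, SE 0.18) also passed, with limma adjusted p of 0.0393, 0.0334 and 0.0238. With Fos, 4 of the 11 were called higher (background 1.35%). Zfp36 (-0.14, SE 0.31) and Btg2 (0.10, SE 0.18) were the lowest 2 of the list. None of the 11 passed on either single platform. There, 5 on U74Av2 (background 5.01%) and 8 on MOE430v2 (background 6.03%) were higher at an unadjusted p under 0.05 by limma. All 4 calls were lost without the intensity trend (adjusted p 0.165 to 0.240) and with median centring (0.0638 to 0.0767), those of Dusp1 (0.0593), Egr1 (0.0737) and Fosb (0.0840) without wild-type pool 2, that of Egr1 (0.0735) without Foxa2 null pool 1, and those of Fos (0.0505), Egr1 (0.0568) and Fosb (0.0629) without the low-signal filter. Like Ddit3 1417516_at, Fos was higher in pool 1 than in pool 2 of both genotypes, whereas Hspa1b over both platforms was higher in pool 2 of both. The part of the immediate early genes in the member values was not tested.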

How the data were processed

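RNA of 4 embryo pools was measured on 8 arrays. The authors deposited a linear MAS5 intensity for each probe set, scaled per array, with a mean trimmed by 2% at each end of 150 on U74Av2 and 500 on MOE430v2. The methods describe a loess step for MOE430v2 that the deposited values do not show.

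In R 4.3.3, signals were log2-transformed and fitted with limma 3.58.1, and MOE430v2 arrays were normalized by cyclic loess. Signals printed for MOE430v2 are as deposited, and its log2 values, ratios and pool comparisons are after loess. Control probe sets (66 and 64) and the 30% lowest signals were left out. The fit was lmFit and eBayes with an intensity trend, Foxa2 null minus wild-type, two-sided, with Benjamini-Hochberg adjustment over all features tested. With 2 pools per genotype the smallest p of an exact permutation test is 0.333. For the fit over both platforms, the probe set with the highest mean signal of each gene was centred per platform and averaged per extract. Having only 2 pools per genotype limits the precision. The p-values of limma weigh the genotype difference against the spread between pools, moderated over all features tested.

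The members and the companion lists were chosen with earlier results of these data known. Every member probe set is named, and from each companion list every gene past the threshold and the 2 lowest and 2 highest ratios over both platforms. No set test was run. Gene names came from the platform annotation, in which 10833 of 12422 and 34945 of 45037 probe sets named 1 gene, and chromosomes from RefSeq (GRCm38.p6). The pipeline was tested on simulated data.

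Alternatives were limma without the trend, other normalizations (U74Av2 by cyclic loess and MOE430v2 as deposited, quantile, median centring), an offset of 32 before log2, no filter and a filter of 50%, a replicate block, all probe sets of a gene averaged, probe sets that can share sequence left out, and each pool left out, and for the companion lists these were added after seeing the data. The authors' change calls and probe-level Wilcoxon test were not repeated, since present calls and probe values were not used here. Protein sequences were not used here.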

Additional observations from a re-analysis of the deposited data

How the results depend on the processing

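Of 286 member ratios under other settings, 278 kept their direction and their side of the threshold, 2 lost the call, 4 gained one and 2 turned sign. The count of called features was 24 on U74Av2, 137 on MOE430v2 and 143 over both platforms, and it depended on the setting. Without the intensity trend it was 0, 0 and 2, and without the low-signal filter 3, 43 and 83. With 50% of signals left out it was 38 on U74Av2 and 325 on MOE430v2, and median centring gave 33 over both platforms (24 lower and 9 higher, against 63 lower and 80 higher without it). The replicate numbers were not taken to pair the pools, since the deviations of the pools numbered 1 from their genotype means correlated at only 0.111 on U74Av2 and 0.0851 on MOE430v2, over 2 numbers. With the replicate number as a block the count was 292, 1643 and 502, the adjusted p of Hspa1b 1427127_x_at became 0.0236, that of Pdia4 over both platforms became 0.00132, and no other member call changed. The block also added calls in the companion lists. Over all features the block called 292 of 8695 on U74Av2, 1643 of 31526 on MOE430v2 and 502 of 5933 over both platforms. The counts of the lists are to be read against these. Over both platforms it called 4 of 16 other ER chaperones, 3 of 21 other cytosolic chaperones, 1 of 10 chaperonin and prefoldin genes and 7 of 11 immediate early genes. On MOE430v2 it called 3 of 20 other ER chaperones, 3 of 26 other cytosolic chaperones, 2 of 16 sensors and stress factors, 1 of 9 mitochondrial chaperones, 1 of 12 chaperonin and prefoldin genes and 6 of 11 immediate early genes. On U74Av2 it called 2 of 16 other ER chaperones, 1 of 14 translocation genes and 4 of 11 immediate early genes. Pdia4 over both platforms also passed with an offset of 32 (adjusted p 0.0487) and with 50% of signals left out (0.0235). The median of the cytosolic members on MOE430v2 was 0.38 without probe sets that can share sequence, which leaves only Hspa1b 1427126_at. Over both platforms it was 0.019 without the filter and 0.044 with 50% left out, since the first adds Hspa1a and Hspb1 and the second leaves only Hsph1. Hspa5 over both platforms turned to 0.0075 with median centring and 0.11 with all probe sets averaged. Leaving out each pool in turn gave 15 to 38, 32 to 239 and 55 to 274 called features, a cytosolic median of -0.041 to 0.37 on MOE430v2 and 0.16 to 0.54 over both platforms, an immediate early median over both platforms of 0.56 to 1.18, and an ER median over both platforms of -0.19 to -0.040. Of 144 member ratios with a pool left out, 116 kept direction and side of the threshold, 3 lost a call, 3 gained one (Pdia4 over both platforms) and 22 turned sign. Those that turned, none of them called, ran on U74Av2 from -0.44 to 0.00036 (Hspa1a 93875_at), -0.10 to 0.26 (Hspa5 101955_at), -0.48 to 0.037 (Dnajb9 96679_at), -0.45 to 0.26 (Dnajb9 96680_at) and -0.12 to 0.22 (Xbp1 94821_at). On MOE430v2 they ran from -0.97 to 1.72 (Hspa1b 1427126_at), -0.19 to 0.37 (Hspb1 1422943_a_at), -0.96 to 0.36 (Hspb1 1425964_x_at), -0.24 to 0.020 (Hspa5 1416064_a_at), -0.14 to 0.052 (Dnajb9 1417191_at), -0.17 to 0.27 (Xbp1 1420011_s_at) and -0.29 to 2.25 (Ddit3 1417516_at). Over both platforms they ran from -0.17 to 0.14 (Hspa5), -0.28 to 0.14 (Dnajb9) and -0.19 to 0.033 (Xbp1). Dim probe sets, 2 pools per genotype and the shared extracts limit these values.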
